A study of Homo sapiens with 16 samples.

Results

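The SR splicing factors are a family of RNA-binding proteins named for their C-terminal domain of repeated arginine and serine residues. Here the family was the 10 genes SRSF1, SRSF2, SRSF3, SRSF4, SRSF5, SRSF6, SRSF7, SRSF9, SRSF10 and SRSF11, chosen by symbol from the 58302 gene identifiers of the expression table. The choice was made with their response to NAT10 siRNA already known, so their levels, changes and calls are a description. Limma's call is printed for a member only as a label, and no member's p-value is given in the text or used as evidence. All 10 were in the table and all 10 passed the filter of a mean of at least 1 FPKM (fragments per kilobase of gene, scaled to the size of the library).

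The cells were UM-UC-3, an established human bladder cancer line. They received 75 nM of a siRNA against NAT10 (NAT10-si) or of a negative control siRNA and were collected 48 h later, and no other genotype or drug treatment is given in the labels. NAT10 is the enzyme that places N4-acetylcytidine (ac4C) on RNA, and the title of the study ties it to cisplatin resistance and DNA repair. RNA-seq gave 4 libraries, numbered replicates 2 and 3 in either arm, and acRIP, the immunoprecipitation of ac4C-bearing RNA, gave 4 peak lists, 1 per arm in a first and in a replicate round. The labels give 1 siRNA sequence against NAT10, so effects of its other targets and of NAT10 loss cannot be told apart. The labels do not state whether replicates were separate cultures, so every error and p-value here reflects only how far these libraries differ, and that difference may be technical.

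SR proteins bind short enhancer motifs in exons through RNA recognition motifs and bring the spliceosome to nearby splice sites through the arginine and serine domain. SRPK kinases phosphorylate that domain in the cytoplasm, transportin-SR carries the protein into the nucleus, and CLK kinases phosphorylate it further and release it from nuclear speckles. Many SR genes hold a conserved poison exon or a spliced intron in the end of the transcript, through which SR proteins send their own mRNA to nonsense-mediated decay.

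The siRNA sequences given in the labels and the promoters of 3 members are shown first. In the siRNA sequences, read from the labels of the first-round samples, capitals mark the terminal TT.
NAT10-si: ccaucucucgcaucuauuuTT
control: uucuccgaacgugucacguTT

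Promoter windows were taken as the 250 bases before a gene start in RefSeq, build GRCh38.p14, where 9 of the 10 members were matched and SRSF2 was not. The SRSF11 window, chr1:70221130-70221379, lay inside the gene span used for the peaks below. It therefore precedes a start within that span and not the start of the span. SRSF3 is shown because it had the largest difference between the arms, and SRSF5 and SRSF1 because an acRIP peak of each crossed the annotated start. Capitals mark matches to the motifs described next.
SRSF3 promoter, chr6:36594112-36594361, plus strand: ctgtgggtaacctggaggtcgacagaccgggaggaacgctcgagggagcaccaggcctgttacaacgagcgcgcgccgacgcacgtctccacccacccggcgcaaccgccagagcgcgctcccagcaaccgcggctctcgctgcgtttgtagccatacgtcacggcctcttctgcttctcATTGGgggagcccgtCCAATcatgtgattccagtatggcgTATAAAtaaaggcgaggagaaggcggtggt
SRSF5 promoter, chr14:69766892-69767141, plus strand: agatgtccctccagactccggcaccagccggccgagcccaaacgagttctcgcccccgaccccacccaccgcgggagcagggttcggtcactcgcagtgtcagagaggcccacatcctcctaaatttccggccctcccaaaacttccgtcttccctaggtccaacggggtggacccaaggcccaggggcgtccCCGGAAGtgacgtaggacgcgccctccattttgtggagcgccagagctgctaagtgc
SRSF1 promoter, chr17:58007247-58007496, minus strand: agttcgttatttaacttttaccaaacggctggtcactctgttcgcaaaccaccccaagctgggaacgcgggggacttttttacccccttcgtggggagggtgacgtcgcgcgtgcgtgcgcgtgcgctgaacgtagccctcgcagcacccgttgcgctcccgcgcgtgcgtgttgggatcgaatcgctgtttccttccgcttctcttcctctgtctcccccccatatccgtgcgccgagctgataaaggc
Both strands of each window were searched for 7 motifs, and each share below is of the 27305 RefSeq windows of this length. The SRSF3 window held the letters CCAAT on either strand, 66 and 51 bases before the start, and 33.0% of all windows held them. It also held the TATA box TATAAA 25 bases before the start (11.1% of all windows). So did the SRSF11 window, 201 bases before the start within the gene span that defined it. The ETS site CCGGAAG lay 51 bases before the start of SRSF5 and 235 bases before that of SRSF4 (8.82%). The GC box GGGCGG was found in the SRSF4, SRSF6 and SRSF7 windows (42.3%). SRSF10 had overlapping matches on opposite strands to the NRF1 core GCATGCG (3.57%). It also had 1 of 4 forms of the E2F site (2.79%), which were TTTCCCGC, then TTTCGCGC, then TTTGCCGC and last TTTGGCGC. No member window held the cyclic AMP response element TGACGTCA (1.77%), and those of SRSF1 and SRSF9 held none of the 7 motifs. A match is a run of letters in the window and shows no binding.

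Whole reads could be recovered from the FPKM steps and came to between 17204811 and 35595546 per library, with the deepest library in the control arm. NAT10 itself measured 19.0 and 17.6 FPKM with control siRNA against 4.04 and 3.84 FPKM with its own siRNA, a log2 change of -1.97 ± 0.06 (SE). Of 12 luminal urothelial markers 6 were tested, of which KRT7 was called higher, KRT18 lower and 4 neither. KRT18 was at 85.7 and 85.8 FPKM in the controls and 53.0 and 53.6 FPKM with NAT10 siRNA, and KRT8 at 25.9 and 26.2 against 25.6 and 23.2 FPKM. Markers at low levels that were higher in both NAT10-si libraries included KRT7 (1.76 and 1.62 against 2.98 and 3.72 FPKM), KRT19 (0.0585 and 0.0656 against 3.26 and 0.646 FPKM) and KRT20 (listed at 0 in both controls, against 0.686 and 0.121 FPKM). UPK2 and PPARG were also higher in both NAT10-si libraries but not called. UPK1A, UPK1B, GATA3 and FOXA1, likewise at low levels, overlapped between the arms. UPK3A was listed at 0 in every library. The nuclear RNAs MALAT1 and NEAT1 and the mitochondrial rRNAs MT-RNR1 and MT-RNR2 were higher in both NAT10-si libraries, by log2 values of 1.17, 1.25, 1.24 and 1.35. Summed over 7 plasma cell markers (IGKC, IGHA1, IGHA2, IGHG1, IGLC2, JCHAIN and MZB1) the level was 0.997 and 0.112 FPKM in the controls and 65.0 and 14.8 FPKM in NAT10-si replicates 2 and 3. Among immune markers LCP1, an actin-bundling protein of blood cells, was at 0.837 and 0.848 FPKM in the controls and 3.70 and 4.02 FPKM with NAT10 siRNA. PTPRC, CD3D and MS4A1 were at 0 in all libraries, and no immune marker besides LCP1 reached the filter. The part of these signals in the results below was not tested.

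Within the SR family, 6 genes were labelled lower with NAT10 siRNA, 2 higher and 2 neither. The label is that given to every gene of the table, an adjusted p under 0.05 (limma-trend with Benjamini-Hochberg adjustment over 14004 genes). SRSF3, SRSF2, SRSF7, SRSF10, SRSF6 and SRSF4 were the lower genes and SRSF5 and SRSF11 the higher. Among all genes tested 27.9% were called lower and 27.9% higher, and since the members were chosen with this contrast known nothing is read from the difference. Both NAT10-si libraries lay below both controls for those 6 members, against 40.1% of all genes tested, and above both for SRSF5, SRSF11 and SRSF1, against 40.4%. The median log2 change was -0.41 over the 10 members and 0.01 over all genes tested. Changes are on the scale of log2(FPKM + 1).

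**Figure D1:**
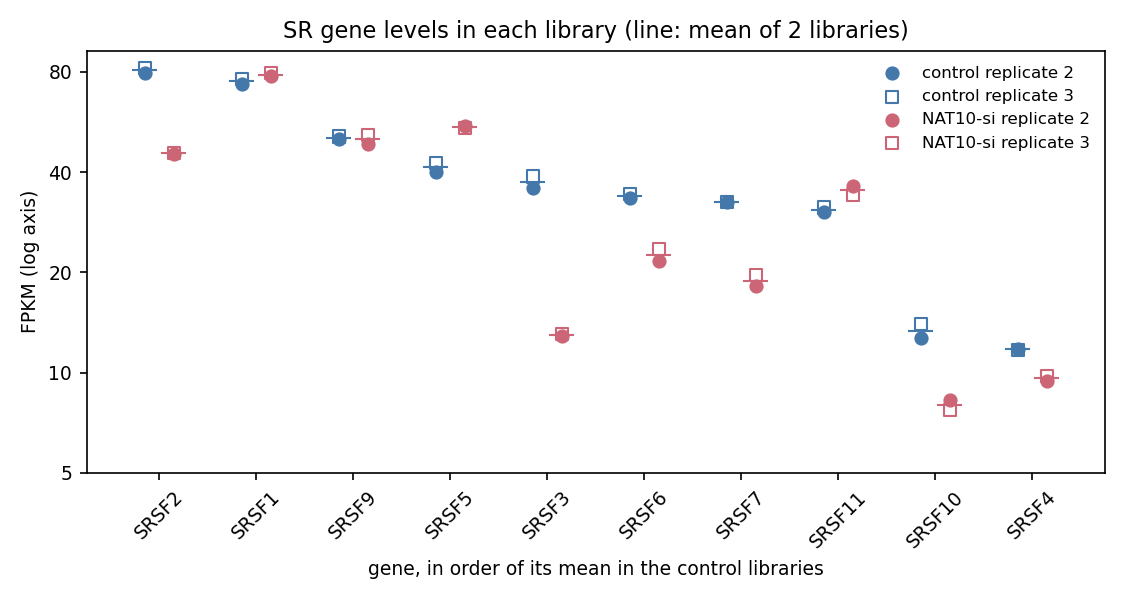
FPKM (log axis) of each of the 10 SR genes in the 4 libraries, in order of the control mean, with blue for control, red for NAT10-si and a line at the mean of 2 libraries. SRSF3 drops from 35.7 and 38.8 to 12.9 and 13.1 FPKM, while SRSF9 stays between 48.6 and 51.7 FPKM in all 4.

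Members with a lone RNA recognition motif included those with the largest differences. SRSF3 (ENSG00000112081), the smallest SR protein, which shuttles out of the nucleus and serves as an adaptor for mRNA export, measured 35.7 and 38.8 FPKM with control siRNA against 12.9 and 13.1 FPKM with NAT10 siRNA. The log2 change was -1.45 ± 0.06 (SE), and the mean with NAT10 siRNA was 0.348 of the control mean. Only 35 of 14004 genes tested had a lower change. The values rested on 9309 and 5406 reads in the controls and on 1735 and 1666 reads with NAT10 siRNA, so counting error was small beside the difference. Bulk RNA does not tell apart less SRSF3 RNA per cell and fewer cells that express it.

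SRSF2 (ENSG00000161547), known as SC35, is an enhancer-binding factor that stays in nuclear speckles. Its levels were 79.3 and 82.3 FPKM in the controls and 45.5 and 45.7 FPKM with NAT10 siRNA, a log2 change of -0.81 ± 0.04 (SE). By FPKM it ranked 1 among the members in each control library and 4 in each NAT10-si library. That order depends on the gene lengths used. By reads, which are not divided by length, SRSF1, SRSF3 and SRSF11 were above SRSF2 in both controls. MFSD11, a gene on the opposite strand that overlaps SRSF2, was at 24.9 and 24.9 against 12.7 and 13.0 FPKM. The labels do not say whether counting used strand, so reads of the overlapping part cannot be told apart, and MIR636, inside SRSF2, was listed at 0.

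SRSF7 (ENSG00000115875), the member with a zinc knuckle and, like SRSF3, an export adaptor, was at 32.6 and 32.5 FPKM in the controls and at 18.2 and 19.6 FPKM with NAT10 siRNA. Its log2 change was -0.76 ± 0.05 (SE). SRSF10 (ENSG00000188529), which becomes a splicing repressor when dephosphorylated in heat shock and mitosis, went from 12.7 and 14.0 FPKM to 8.26 and 7.74 FPKM. The log2 change was -0.67 ± 0.07 (SE). Libraries of the arms were apart for both genes.

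SRSF11 (ENSG00000116754), also called p54, differed in direction from the other members of this structure. It was at 30.4 and 31.3 FPKM in the controls and at 36.3 and 34.1 FPKM with NAT10 siRNA, a log2 change of 0.19 ± 0.05 (SE). The change was 0.17 without control replicate 2, 0.21 without the other control and 0.14 without NAT10-si replicate 2, and it was not called in these 3 fits. With no filter on low values, with every library scaled to the same sum and with a replicate block the change was 0.19 and likewise not called.

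Among the members with a pair of RNA recognition motifs, SRSF1, SRSF4, SRSF5, SRSF6 and SRSF9, the log2 changes lay between -0.56 and 0.39. SRSF6 (ENSG00000124193), known as SRp55, was at 33.3 and 34.3 FPKM in the controls and at 21.7 and 23.5 FPKM with NAT10 siRNA. The log2 change was -0.56 ± 0.06 (SE). SRSF4 (ENSG00000116350), SRp75, with the longest arginine and serine domain of the family, went from 11.8 and 11.7 FPKM to 9.46 and 9.74 FPKM, a log2 change of -0.26 ± 0.05 (SE). Both were lower in each NAT10-si library than in either control. MECR, which overlaps SRSF4, was at 4.99 and 5.21 FPKM in the controls and at 5.17 and 4.86 FPKM with NAT10 siRNA.

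SRSF5 (ENSG00000100650), SRp40, a regulator of alternative splicing whose own poison exon responds to SR proteins, was at 40.2 and 42.7 FPKM in the controls and at 54.9 and 54.4 FPKM with NAT10 siRNA. The log2 change was 0.39 ± 0.05 (SE). It was the largest increase among the members. SRSF5 ranked 4 by FPKM in the controls and 2 with NAT10 siRNA, having passed SRSF9 while SRSF2 went from rank 1 to rank 4.

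SRSF1 (ENSG00000136450), the founding member, known as ASF/SF2 and as an oncoprotein, was at 73.3 and 76.3 FPKM in the controls and at 77.5 and 79.6 FPKM with NAT10 siRNA. The libraries of the arms did not overlap, with a log2 change of 0.07 ± 0.04 (SE), and the gene was not labelled. SRSF9 (ENSG00000111786), SRp30c, was at 50.4 and 51.1 FPKM against 48.6 and 51.7 FPKM. Its libraries overlapped, with a log2 change of -0.02 ± 0.05 (SE). GATC, which overlaps SRSF9, was at 19.4 and 19.4 FPKM in the controls and at 20.6 and 21.6 FPKM with NAT10 siRNA.

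**Figure D2:**
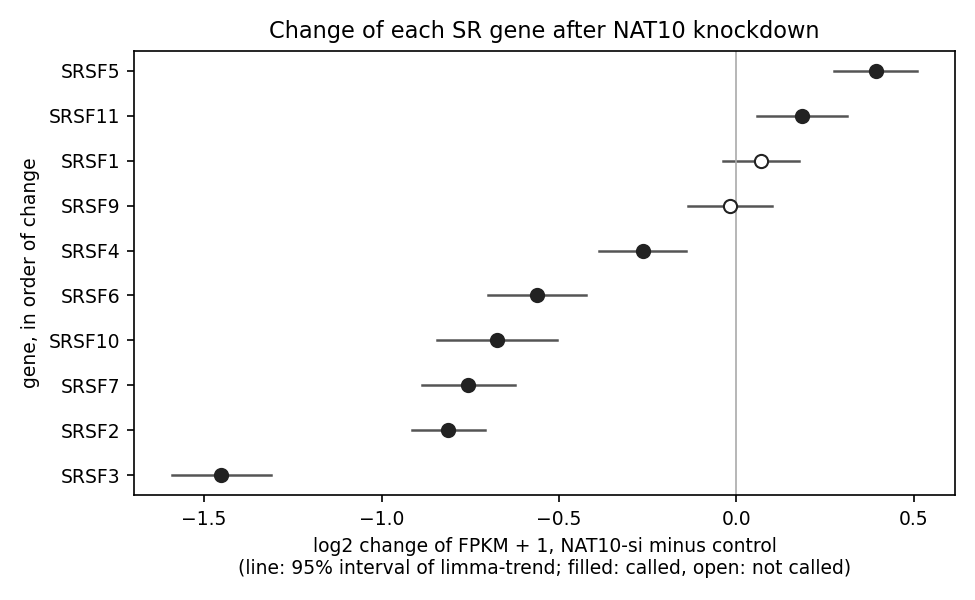
Log2 change of FPKM + 1 (NAT10-si minus control) for each SR gene, with the 95% interval of limma-trend as a line for scale, filled where labelled higher or lower and open where not. SRSF3 at -1.45 and SRSF5 at 0.39 are the 2 ends, and the open points are SRSF9 and SRSF1.

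The make-up of the SR pool therefore differed between the arms. FPKM divides by a length per gene, so levels of different members were set side by side. The lengths the authors used are not given, and the shares and order below depend on them. The summed level of the 10 genes was 399.7 and 415.0 FPKM in the controls and 333.2 and 339.1 FPKM with NAT10 siRNA. SRSF3 made up 8.94% and 9.35% of the pool in the controls and 3.86% and 3.86% with NAT10 siRNA. SRSF2 went from 19.8% in either control to 13.7% and 13.5%. SRSF5 took 10.1% and 10.3% of the pool in the controls and 16.5% and 16.0% with NAT10 siRNA, SRSF1 took 18.4% and 18.4% against 23.3% and 23.5%, and SRSF11 took 7.61% and 7.54% against 10.9% and 10.1%. The ratio of SRSF5 to SRSF3 was 1.12 and 1.10 in the controls and 4.27 and 4.15 with NAT10 siRNA. The ratio of SRSF3 to its fellow export adaptor SRSF7 was 1.10 and 1.19 against 0.709 and 0.668.

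The order of abundance was the same in both libraries of an arm. In the controls it ran SRSF2, SRSF1, SRSF9, SRSF5, SRSF3, SRSF6, SRSF7, SRSF11, SRSF10 and SRSF4. With NAT10 siRNA it ran SRSF1, SRSF5, SRSF9, SRSF2, SRSF11, SRSF6, SRSF7, SRSF3, SRSF4 and SRSF10. No neighbours in either order had overlapping ranges. In the controls SRSF2 and SRSF1, SRSF5 and SRSF3, SRSF3 and SRSF6, SRSF6 and SRSF7, and SRSF10 and SRSF4 were each within 2 combined standard deviations of each other, and in the NAT10-si arm every pair of neighbours was farther apart than that.

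**Figure D3:**
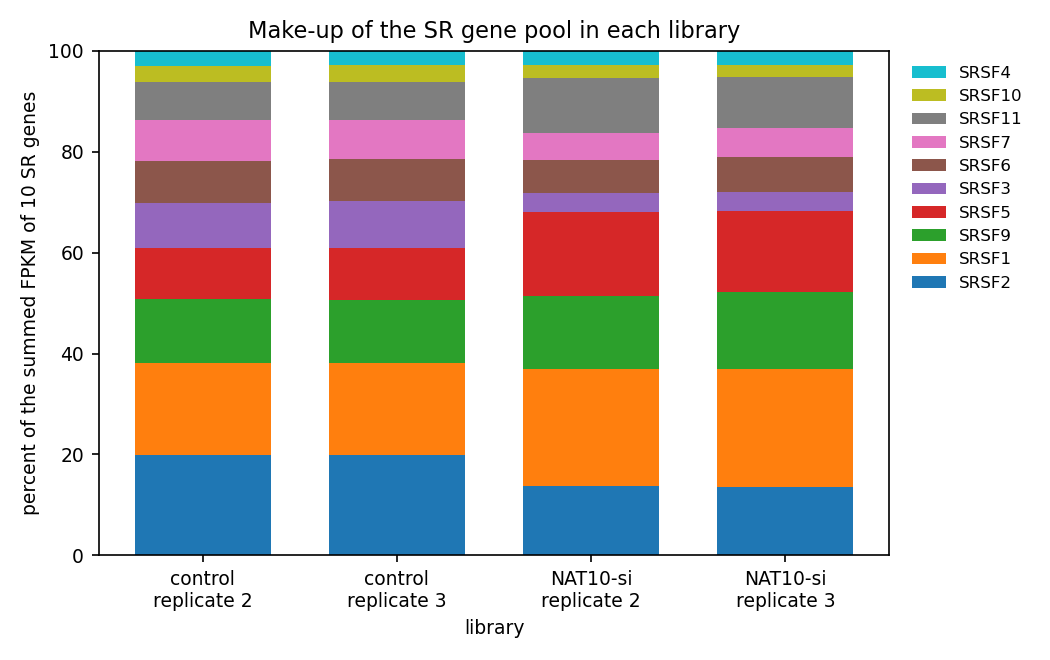
Percent of the summed FPKM of the 10 SR genes that each gene makes up, as stacked bars for the 4 libraries. The SRSF3 band narrows from 8.94% and 9.35% to 3.86% and 3.86%, and the SRSF5 band widens from 10.1% and 10.3% to 16.5% and 16.0%.

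SRSF8 and SRSF12 belong to the same family but stand outside the 10. SRSF8, an expressed retrocopy of SRSF2, fell from 5.42 and 6.01 FPKM to 3.92 and 3.96 FPKM, a log2 change of -0.44 ± 0.07 (SE, limma adjusted p = 0.00418). Reads shared with SRSF2 cannot be told apart. SRSF12 was below 0.04 FPKM in every library. Of the SRSF pseudogenes in the table, those above 0 in any library were SRSF1P1 (0.999, 0.688, 0.711 and 0.753 FPKM, controls first), SRSF6P2, SRSF9P1 and SRSF10P1, the last 3 below 0.5 FPKM.

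Among the enzymes and the importer that act on SR proteins, 2 of 9 measured genes rose, 2 fell and 5 did not pass, with a median log2 change of 0.01. Of all genes tested 27.9% were called each way, so these counts were near the background. SRPK1, the main cytoplasmic SR kinase, fell from 19.7 ± 0.151 to 12.6 ± 0.335 FPKM (SD, 2 libraries, limma adjusted p = 0.000527), while SRPK2 was at 8.74 and 8.98 FPKM. CLK1, the nuclear kinase, rose from 11.0 ± 0.751 to 19.6 ± 0.0471 FPKM (limma adjusted p = 0.000504). CLK2 fell by 0.46 and CLK3 rose by 0.32 on the log2 scale (limma adjusted p = 0.0018 and 0.0121), the latter not called without control replicate 2, where the change was 0.28. DYRK1A was at 2.80 and 2.86 FPKM.

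Of 30 other measured splicing regulators with an arginine and serine domain 9 rose, 13 fell and 8 did not pass, with a median of -0.09, beside 27.9% of all genes tested called each way. LUC7L3 and PNISR rose, LUC7L3 from 24.9 ± 1.05 to 43.0 ± 0.848 FPKM (limma adjusted p = 0.000328) and PNISR from 24.5 ± 1.36 to 44.6 ± 1.89 FPKM (limma adjusted p = 0.000422). TRA2B, a partner of SR proteins on exonic enhancers, fell from 21.2 ± 0.797 to 10.8 ± 0.724 FPKM (limma adjusted p = 0.000418). SON, a scaffold of nuclear speckles, fell by 0.77, U2AF2, which binds the polypyrimidine tract, by 0.71, and THRAP3 by 0.62 (limma adjusted p = 0.000431, 0.000533 and 0.000376).

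Nonsense-mediated decay, guided by the exon junction complex, disposes of poison-exon transcripts. Of 15 measured genes of this list 9 fell, 2 rose and 4 did not pass, with a median of -0.29, beside 27.9% of all genes tested called each way and an all-gene median of 0.01. RBM8A and MAGOHB, core subunits of the junction complex, fell by 0.53 and 0.67 (limma adjusted p = 0.00108 and 0.00162). SMG8 and SMG6, the latter the endonuclease of the pathway, fell by 0.50 and 0.40 (limma adjusted p = 0.00158 and 0.00254). SMG9 and CASC3 rose by 0.53 and 0.40 (limma adjusted p = 0.000788 and 0.00131). Without control replicate 2 fewer genes were called lower, both in this list and over all genes tested.

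Of 17 measured mRNA export genes, 9 fell, 4 rose and 4 did not pass, with a median of -0.23, beside the same 27.9% each way. ALYREF, the adaptor of the TREX complex, fell from 45.5 ± 0.602 to 25.6 ± 1.21 FPKM (limma adjusted p = 0.000312). THOC6, another TREX subunit, fell from 19.8 ± 0.821 to 10.4 ± 0.672 FPKM (limma adjusted p = 0.000463). DDX39A, MCM3AP and FYTTD1 fell by 0.45, 0.41 and 0.44 and POLDIP3 rose by 0.37 (limma adjusted p = 0.000933, 0.00208, 0.00263 and 0.00161). NXT2 was listed at 0. Without control replicate 2 fewer genes were called higher, both among the export genes and over all genes tested. 

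**Figure D4:**
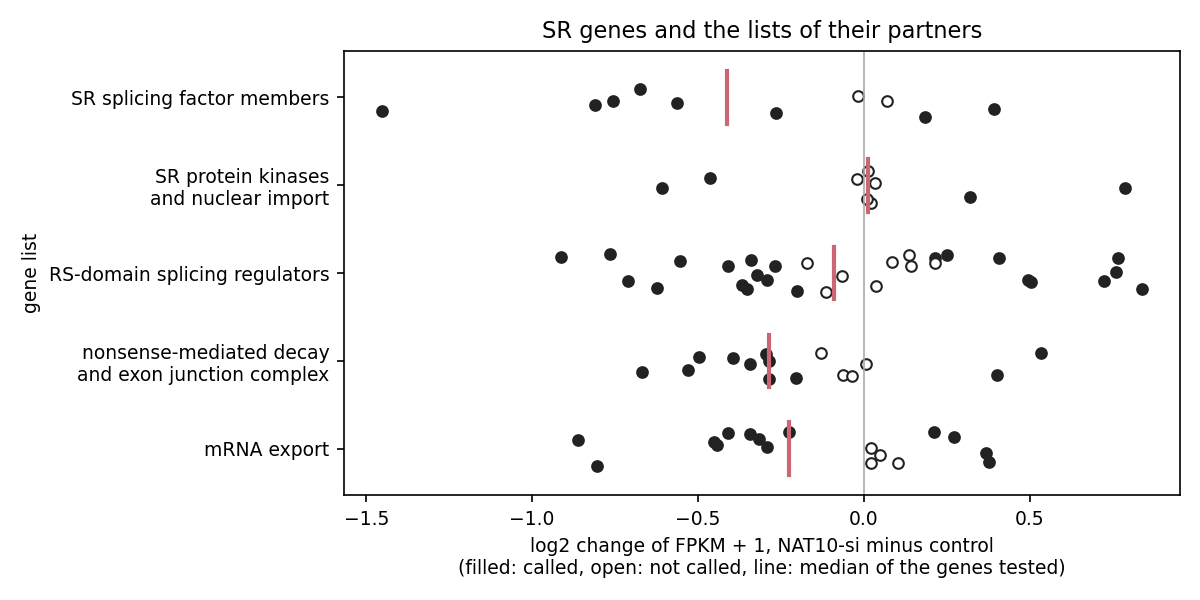
Log2 change of FPKM + 1 (NAT10-si minus control) of every tested gene in the SR family and in the 4 partner lists, filled where called, with a line at each list's median. The medians run from -0.41 for the SR genes to 0.01 for the kinases and importer, and each list holds called genes on both sides of 0.

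The acRIP lists were read for peaks named for the SR genes. Of the 10 members, none had a peak in the first control list, 3 in the first NAT10-si list, 7 in the replicate control list and 9 in the replicate NAT10-si list. The shares of all genes tested with a peak were 3.03%, 3.48%, 49.6% and 64.5%. Among the 4654 genes with a mean at or above that of the lowest member, 10.7 FPKM, they were 4.34%, 5.57%, 71.3% and 81.7%. The replicate-round counts were thus near those of genes at such levels. With 1 list per arm and round no difference between arms has a replicate check. In all, 44 peaks lay in SR genes, 3 in the first round and 12 and 29 in the replicate round, and each overlapped its gene's span in GRCh38.p14. The whole replicate-round lists held 10253 control and 16753 NAT10-si peaks, so the NAT10-si list was the longer. The NAT10-si to control ratio was 1.63 over all peaks and 2.42 over SR peaks, a difference that was not tested.

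Positions are those of the lists and folds are the authors' enrichment, used only within a list. SRSF1 held the highest fold among the members, 637 at chr17:58003449-58004254 in the replicate NAT10-si list, above 99.9% of that list. An overlapping peak at chr17:58003390-58004075 in the replicate control list had a fold of 150, above 93.6% of its list. SRSF2 led the members in the replicate control list with a fold of 299 at chr17:76734115-76734712, above 98.2% of the list. The NAT10-si list gave the same interval, which reaches the 3' end of the gene, a fold of 83.3, above 94.7% of its peaks. Both genes had overlapping peaks in the 2 arms of that round.

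SRSF5 ended in a peak in both replicate-round lists, chr14:69771257-69772005 with a fold of 67.4 in the control list and chr14:69769665-69772005 with a fold of 84.8 in the NAT10-si list. The NAT10-si list held 4 more SRSF5 peaks, the first of them, chr14:69767079-69767348 with a fold of 3.29, beginning 63 bases before the start and reaching into the promoter printed above. In SRSF1 a NAT10-si peak at chr17:58006460-58007346 with a fold of 4.79 likewise began 100 bases before the start. SRSF9 had 1 peak near its end in each replicate-round list, with folds of 64.8 and 44.2, and SRSF11 had 1 control peak with a fold of 45.3 inside the one of its 4 NAT10-si peaks that covered the most bases. SRSF6 had 3 control and 4 NAT10-si peaks, and SRSF7 had 3 and 1.

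SRSF4 and SRSF10 had 4 peaks each in the replicate NAT10-si list and none in the replicate control list. The highest were chr1:29147743-29148012 in SRSF4, with a fold of 35.1, and chr1:23964864-23965223 and chr1:23965373-23965553 in SRSF10, each with a fold of 21.1. All 4 SRSF4 peaks and 2 of the 4 SRSF10 peaks met a false discovery rate of 0.05, and the second SRSF10 peak named here did not. The NAT10-si list was the longer list of that round. With lists of equal length SRSF4 was still in it and SRSF10 was not. SRSF3, the member with the largest difference in level, had no peak in either replicate-round list. Its peak in the first NAT10-si list, chr6:36603118-36603297, had a fold of 3.91, above 9.76% of that list. The other first-round peaks lay in SRSF2 at chr17:76737105-76737284 with a fold of 2.59 and in SRSF4 at chr1:29148102-29148282 with a fold of 18.7. None of the 3 overlapped a replicate-round peak.

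**Figure D5:**
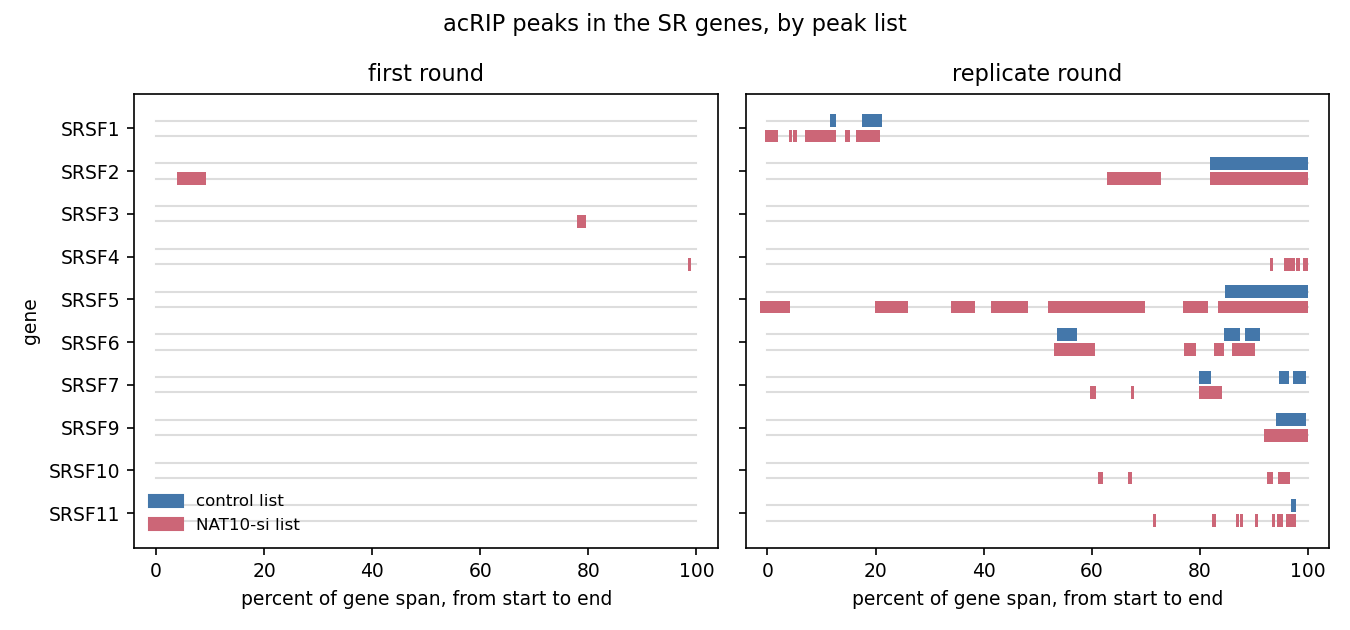
acRIP peaks in the 10 SR genes along the gene span, in percent from start to end, in the first (left) and replicate (right) round, with blue for the control list and red for the NAT10-si list. SRSF4 and SRSF10 carry only red bars in the replicate round, and SRSF3 carries none there. The NAT10-si list of that round is the longer, and with lists of equal length SRSF10 has no peak.

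In the replicate round 10 of the 12 control peaks in SR genes (83.3%) overlapped a NAT10-si peak of the same gene by at least 1 base on the same strand, beside 73.8% of all peaks of the control list. Of the 29 NAT10-si peaks 10 (34.5%) overlapped a control peak, beside 43.8% of all peaks of the NAT10-si list. Peaks covered 4224 bases of SR genes in the control list and 12735 bases in the NAT10-si list, a ratio of 3.02, beside a ratio of 1.93 over all peaks of these lists. Mean covered length per SR peak was 352.0 and 439.1 bases. Peaks split into several blocks numbered 0 of 12 and 7 of 29 (24.1%), beside 15.5% and 21.7% of all peaks. Peak centres fell in the last 20% of the gene span for 9 of 12 control peaks (75.0%) and 14 of 29 NAT10-si peaks (48.3%), beside 79.0% and 72.0% of all peaks placed in a gene. These differences are between single lists and were not tested.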

How the data were processed

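RNA-seq of UM-UC-3 cells with control or NAT10 siRNA and the acRIP peak lists of the same line were used. Libraries of T24 cells and the RNA-seq libraries of UM-UC-3 numbered 1 were not analysed here. Tools listed in the submitters' processing notes are HISAT2 2.1.0, HTSeq 0.6.1 and bcl2fastq 2.19.1, with the build hg19. The deposited expression table names no unit. Its steps differed by gene as in FPKM, the unit taken here for the authors' scaling. Whole reads were recovered for 27570 of 27571 genes detected in 2 or more libraries (relative tolerance 3e-09). They are the smallest that fit, so true totals may be larger. Replicates differed beyond sampling noise (mean chi-square per gene 2.80 and 2.62).

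Each deposited peak has, per the file headers, the authors' fold enrichment (a ratio), p-value and scores that are log10 of the p-value or false discovery rate. No source used here names the caller. Only their names told the arm and round of the earlier pair of lists. Peak positions, counted from 1, fitted GRCh38.p14 gene spans for 97.3% to 98.4% of the peaks whose gene symbol was in RefSeq, although hg19 is named. Exons and untranslated regions were not used here.

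limma-trend (limma 3.58.1, R 4.3.3) was fitted to log2(FPKM + 1) of the 14004 genes averaging 1 FPKM or more. The code was also run on simulated data. Their spread was set rather than taken from these replicates, so that run gives no error rate for the results here. Benjamini-Hochberg adjusted p-values under 0.05 were called. The planned rule for normalised values was used. Tables were made with Python 3.11.15. Of 58302 identifiers, 57532 were matched to a symbol. Members and gene lists were chosen with earlier results of these data known. Named genes were NAT10, all members, up to 6 genes per partner list by lowest p, pseudogenes and overlapping genes above 0, and the RNA quality and cell type markers, not all of which are reported here. Alternatives changed the pseudocount, filter, scaling, model, libraries and peak cutoffs. Read counts give depth only, and intervals come from the model.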

Additional observations from a re-analysis of the deposited data

How the results depend on the processing

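Of 120 member values recomputed (12 alternatives for each of 10 genes), 114 kept their side of the threshold, 6 lost the call and no called change reversed. All 6 were SRSF11. SRSF9, which was never called, changed sign. Its log2 change of -0.018 became 0.007 with voom on recovered reads and 0.026 without NAT10-si replicate 2. The count of members called higher was 2, and 1 with no filter on low values, with every library scaled to the same sum and with a replicate block. Leaving out 1 library gave 1 to 2. The count of members called lower was 6 under every alternative that kept all 4 libraries. It describes genes chosen with this contrast known. Over all genes tested, those called lower numbered from 2896 to 4141 under the same alternatives, against 3911. The replicate numbers were not shown to pair the libraries (correlation of same-numbered deviations 0.01, 2 pairs), and the replicate block gave 33 lower and 17 higher genes in the partner lists, as without it. SRSF3 ranged from -1.51 to -1.23 and SRSF5 from 0.35 to 0.44 over the 12 alternatives. Member peaks in the replicate round numbered 11 and 25 with the false discovery rate limited to 0.05, and 12 and 23 with lists of equal length, where SRSF10 had none in the NAT10-si list. Voom on recovered reads called 4141 genes lower and 4677 higher over the whole table, against 3911 and 3904, and 2529 were higher among genes of at least 5 FPKM. The kinase and importer list had 1 gene higher, against 2, at that filter. Without control replicate 2 fewer genes were called higher, both in that list and over all genes tested. With 2 libraries per arm, small changes such as those of SRSF1 and SRSF9 could not be settled.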
